A study of Mus musculus with 4 samples.

Results

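ATAC-seq peaks around 8 regulators of gamma-delta and innate-like T cells were followed in mouse thymocytes. ATAC-seq marks open chromatin by the insertion of sequencing adapters with a transposase. The genes were Sox4, Sox13, Etv5, Blk, Maf, Zbtb16, Eomes and Tbx21, fixed by name, out of 21887 protein-coding genes in the RefSeq table. A peak was counted for a gene when its midpoint lay in the gene's span or within 50 kb of either end in mm10, and this stretch is called the gene's window. All cells were sorted from the thymus of C57BL/6J mice, wild type and 5 to 7 weeks of age, and analysed without culture. The DN group had 2 samples of CD4- and CD8-negative cells gated as CD25-positive with or without CD44, and the DP group had 2 samples of CD4+CD8+ cells. Neither label describes a sort for gamma-delta or innate-like cells. Nothing in the labels ties the replicates to different mice, so their spread, and any p-value that rests on it, may be purely technical.

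Gamma-delta T cells branch off in the thymus at the DN stage, whereas most innate-like T cells, such as natural killer T cells, derive from DP cells. Sox4 and Sox13 encode HMG-box transcription factors that are needed for the gamma-delta subset making inflammatory cytokines. Etv5 (an ETS factor), Blk (a Src-family tyrosine kinase) and Maf (a bZIP factor) are known from the same subset. Zbtb16 encodes PLZF, the zinc finger factor that directs the innate-like programme of natural killer T cells. Eomes and Tbx21, which encodes T-bet, are T-box factors of natural killer cells and of interferon-gamma production in T cells.

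The 4 peak lists held 38808 peaks (DN 1), 33131 (DN 2), 39718 (DP 1) and 70385 (DP 2), and gave no read counts, so read depth is unknown. A site without a peak may be closed or may have had too few reads, and fewer cells with an open site cannot be told apart from less opening per cell. The lists were of unequal length, and DP 2 alone supplied 46.8% of all regions that came from a single list. As a check of the labels, 6 DP markers were read: Cd4, Cd8a, Cd8b1, Rag1, Rag2 and Cd3e. All 6 had a peak in or within 1000 bp of the gene in both DP lists, with 26 and 20 summed peaks. Each DN list had a peak at 3 of 6, with 3 summed peaks. Rag1 and Rag2 were among these 3 in both DN lists, so their presence did not set the groups apart. The remaining gene was Cd4 in DN 1 and Cd3e in DN 2, with 1 peak each. Cd8a and Cd8b1 were at 0 peaks in both DN lists. Of the 6 markers of CD25-positive DN cells, 4 had a peak in DN 1, 0 in DN 2, 5 in DP 1 and 6 in DP 2. Il2ra, which encodes the CD25 of the gate, had 5, 0, 6 and 6 peaks in DN 1, DN 2, DP 1 and DP 2, so the DN markers did not set the DN lists apart. Of 6 housekeeping genes, 6 had a peak in DN 1, 4 in DN 2, 6 in DP 1 and 6 in DP 2. Whether the DN lists, and DN 2 above all, missed open sites was not tested. Of 6 markers each of B, myeloid, erythroid and stromal cells and of natural killer and innate lymphoid cells, 1 to 4 had a peak in any list, with 1 to 14 summed peaks. Ms4a1, Csf1r, Lyz2, Ncr1, Klrb1c, Klrk1, Gzmb, Gata1, Hbb-bt, Hba-a1, Alas2 and Epcam were at 0 in all 4 lists. The part of other cells in the results below was not tested.

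Promoter sequences, from RefSeq (GRCm38.p6, the build of mm10), were found for 5 of the 8 genes. They run from 250 bases before to 50 bases after the start of transcription, 5' to 3' on the gene's strand. They are shown because they differ in how many lists held them: all 4 lists for Sox4 and for the upstream start of Etv5, DP 2 alone for Tbx21, and 0 lists for Eomes and Sox13. Capitals mark exact matches, on either strand, to the E-box CANNTG and the GC box GGGCGG, and the 3 GC boxes of Tbx21 share 1 base with the next. The stretches are chr13:28953650-28953949 (Sox4, minus strand), chr16:22439521-22439820 (Etv5, minus), chr11:97115282-97115581 (Tbx21, minus), chr9:118477939-118478238 (Eomes, plus) and chr1:133424163-133424462 (Sox13, minus).
Sox4: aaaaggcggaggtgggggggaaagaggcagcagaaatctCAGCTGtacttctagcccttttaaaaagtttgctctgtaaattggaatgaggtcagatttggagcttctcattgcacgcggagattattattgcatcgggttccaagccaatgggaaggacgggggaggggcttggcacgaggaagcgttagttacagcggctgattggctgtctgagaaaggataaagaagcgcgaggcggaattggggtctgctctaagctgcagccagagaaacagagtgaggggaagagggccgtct
Etv5: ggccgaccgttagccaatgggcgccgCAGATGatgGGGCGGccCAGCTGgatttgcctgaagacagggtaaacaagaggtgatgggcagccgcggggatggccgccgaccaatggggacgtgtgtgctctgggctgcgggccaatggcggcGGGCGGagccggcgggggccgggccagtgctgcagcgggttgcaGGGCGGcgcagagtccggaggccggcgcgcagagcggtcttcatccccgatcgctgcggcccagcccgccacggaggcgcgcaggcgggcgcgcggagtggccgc
Tbx21: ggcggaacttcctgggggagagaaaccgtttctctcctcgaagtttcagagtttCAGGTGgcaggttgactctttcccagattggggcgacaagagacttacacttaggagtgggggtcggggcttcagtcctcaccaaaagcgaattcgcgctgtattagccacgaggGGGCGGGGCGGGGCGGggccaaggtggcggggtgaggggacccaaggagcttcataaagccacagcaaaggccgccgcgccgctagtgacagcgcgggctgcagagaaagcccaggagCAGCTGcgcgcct
Eomes: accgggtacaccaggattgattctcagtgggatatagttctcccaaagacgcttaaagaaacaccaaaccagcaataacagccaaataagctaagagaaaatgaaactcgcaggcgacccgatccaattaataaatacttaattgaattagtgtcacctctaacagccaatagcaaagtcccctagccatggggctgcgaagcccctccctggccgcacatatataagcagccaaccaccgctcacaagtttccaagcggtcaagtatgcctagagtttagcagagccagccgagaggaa
Sox13: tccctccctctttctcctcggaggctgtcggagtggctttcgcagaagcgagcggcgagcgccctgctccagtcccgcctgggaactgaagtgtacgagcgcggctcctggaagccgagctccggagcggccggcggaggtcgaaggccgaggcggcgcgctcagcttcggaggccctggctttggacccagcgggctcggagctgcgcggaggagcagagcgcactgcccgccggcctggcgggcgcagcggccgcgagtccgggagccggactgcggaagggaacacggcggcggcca

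For Sox4 and the Etv5 start shown, the peak of every list covered all 300 bases shown. The Tbx21 peak of DP 2 covered 269 of the 300 bases. Across all 32851 promoters of this length in the table, 14.2% were overlapped by a peak of all 4 lists, 6% by 1 list and 62.2% by 0 lists. High GC content occurred on both sides of this split. Sox13, which no list held, had a GC content of 73.3% and 40 CpG dinucleotides, and the held Etv5 promoter had 74% and 37. Sox4, which all lists held, had 52% GC and 12 CpG, while Eomes had 47.3% and 10 and Tbx21 had 62% and 21. Of the 9950 promoters with at least 55% GC and a CpG observed-to-expected ratio of at least 0.6, the class that Sox13, Tbx21 and both Etv5 promoters belong to, 19.5% were held by 0 lists and 33.2% by all 4. DN 1 held 54.1% of this class, DN 2 37.1%, DP 1 72.8% and DP 2 74.9%, so the DN lists held fewer of these promoters throughout the genome. A second Etv5 start, with its promoter at chr16:22438319-22438618, 60% GC and 19 CpG, was held by 0 lists.

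Of the 9 motifs searched on both strands, only the E-box and the GC box matched in any of the 6 promoters. The E-box CANNTG was found once in Sox4, at bases -211 to -206 from the start, and 2 times each in Etv5 (from -224 and -207) and Tbx21 (from -196 and 38). It occurs in 72.3% of all promoters of this length. The GC box GGGCGG was found 3 times each in Etv5 and Tbx21, against 35.7% of all promoters with at least 1 match. The RUNX motif TGTGGT, the ETS motif CCGGAA, the AGATAA motif of GATA factors, the TCF motif CTTTGA, the SOX motif ATTGTT, the T-box motif GGTGTGA and the TATAAA box had 0 matches in the 6 windows. They occur in 16.8, 14.9, 11.2, 16, 10.7, 3.98 and 13.6% of all promoters, in that order. A match is a description of letters and not a binding site.

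**Figure D1:**
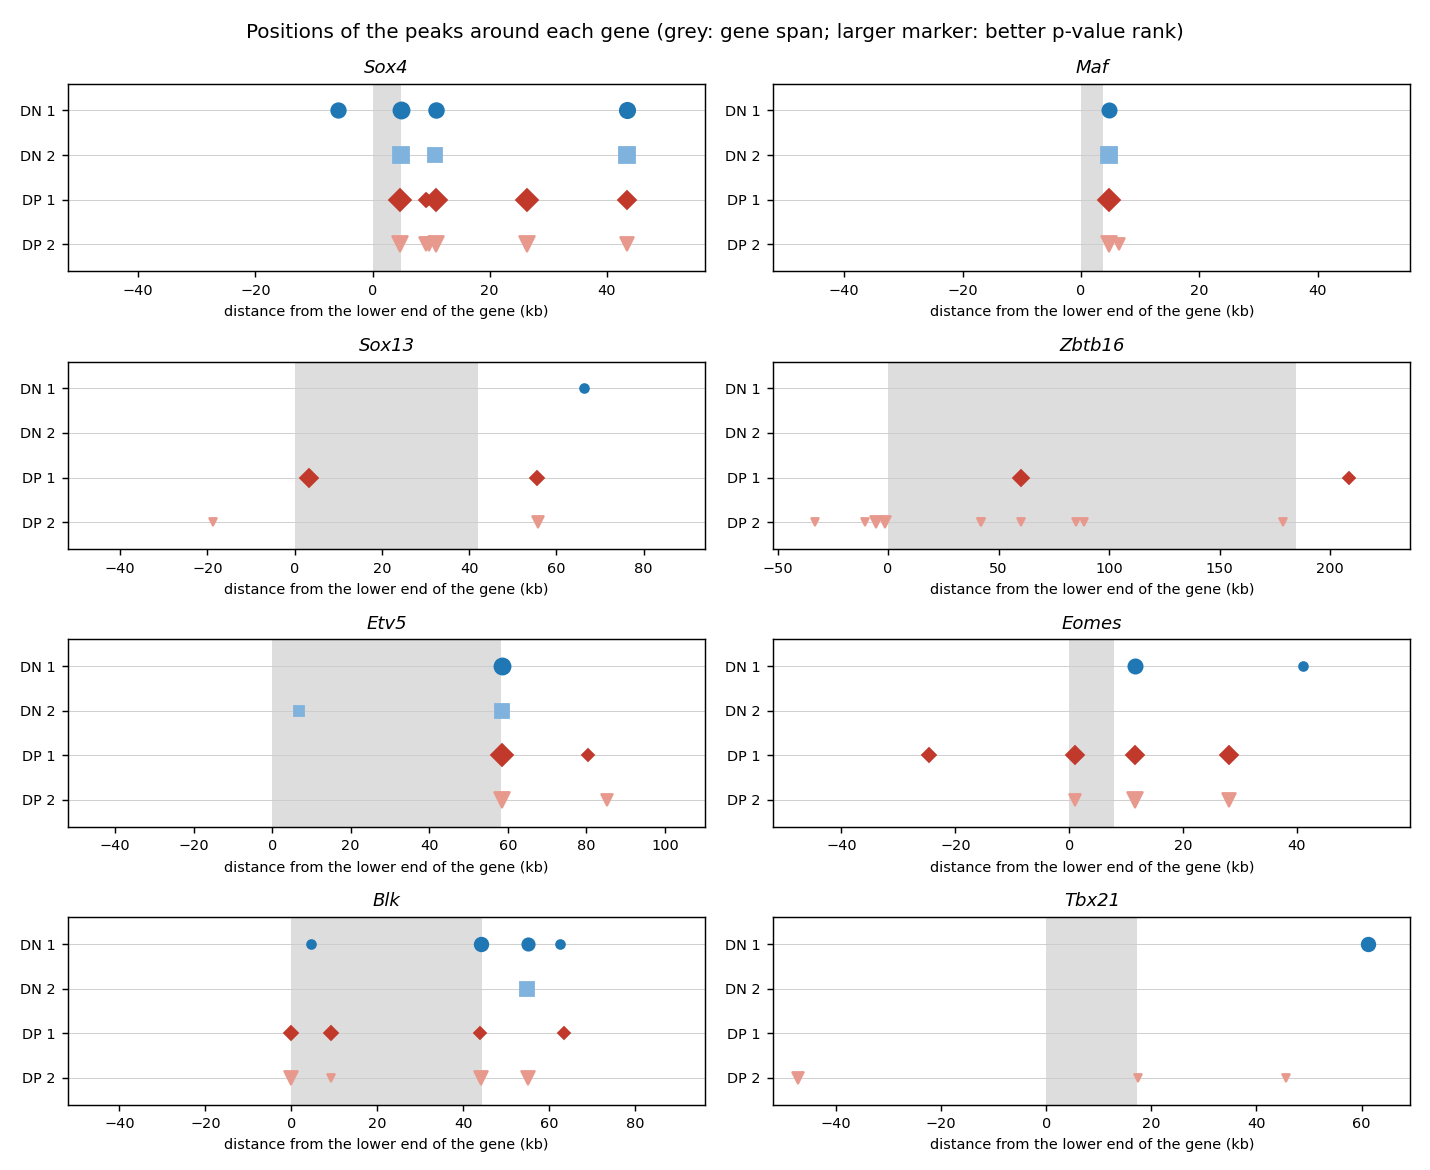
Peak midpoints in the 4 lists around each gene, in kb from the lower-coordinate end of the gene, with the span in grey and the marker larger for a better p-value rank in its list. Sox4 and Etv5 had peaks of all 4 lists at 1 end and Maf had them in a region 657 bp beyond 1 end. The Zbtb16 window was empty in both DN lists.

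Sox4 (NCBI gene 20677, chromosome 13, 28948919 to 28953699) had the most peaks per length of the 8 in both DN and DP cells. Its window held 4 peaks in DN 1, 3 in DN 2, 6 in DP 1 and 6 in DP 2, or 3.5 ± 0.707 (SD, n = 2) in DN and 6 ± 0 in DP cells. The 6 peaks of DP 1 lay in 5 regions, since 2 of them overlapped. Both DP lists lay above both DN lists. No other protein-coding gene reached into this window. When peaks of any lists that shared at least 1 bp were merged into regions, 7 regions resulted, of which all 4 lists held 3.

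The first of these 3 covered the transcription start (28953151 to 28954150, 1000 bp, also over the lncRNA Gm46405). The peak there was 750, 600, 1000 and 950 bp wide in DN 1, DN 2, DP 1 and DP 2, and the stretch common to all was 600 bp. Ranked by the authors' p-value within its own list, with ties at their mean rank, it stood in the top 1.78, 6.96, 3.2 and 2.23% in that order. In DN 1, DP 1 and DP 2 it was tied at the smallest p-value of the list, 1e-12. The second lay 5602 bp beyond the end of the span on the promoter side (28959301 to 28960200), with a common stretch of 350 bp. It stood in the top 17.3 and 24.5% of DN 1 and DN 2 and was tied at the smallest p-value in DP 1 and DP 2. The third lay 38402 bp beyond (28992101 to 28992650) and ranked at 10.3% in both DN lists and at 33.8 and 15.7% in DP 1 and DP 2. These ranks describe each list alone, since lists of different length do not share a scale.

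Between them Sox4 had 2 regions that both DP lists and neither DN list held, called DP-only. The wider one (28974851 to 28975650, 800 bp, over the lncRNA Gm52067) lay 21152 bp from the span and ranked at 13.9% in DP 1 and 9.13% in DP 2. The other (28957751 to 28958300) ranked at 64 and 25.8%. A region on the opposite side of the gene (28942701 to 28943250), 5669 bp from the span, was held by DN 1 alone, at rank 19.5%. Per 10000 peaks of a list the Sox4 window had 1.03 and 0.905 peaks in DN 1 and DN 2 and 1.51 and 0.852 in DP 1 and DP 2, so on this scale the groups overlapped. In the top 50% of each list the difference fell from 2.5 to 1.5 peaks and the groups overlapped as well.

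Sox13 (NCBI gene 20668, chromosome 1, 133382300 to 133424459), the related HMG-box gene, was far sparser. Its window held 1, 0, 2 and 2 peaks in DN 1, DN 2, DP 1 and DP 2, which is 0.5 ± 0.707 in DN and 2 ± 0 in DP cells (SD, n = 2). Both DP lists lay above both DN lists, here also per 10000 peaks (0.258 and 0 against 0.504 and 0.284). Only 1 of its 4 regions was in more than 1 list, a DP-only region 13292 bp beyond the span on the promoter side (133437751 to 133438250, ranks 64 and 53%). In the gene body DP 1 alone held a region (133385401 to 133385950, rank 41%). The remaining pair were a DP 2 peak at an end of the neighbouring gene Etnk2 and a DN 1 peak 24092 bp beyond the span, both tied at the largest p-value of their list. In the top 50% of each list the Sox13 difference was 0.5 instead of 1.5 and the groups overlapped. They also overlapped with the 10 kb window (0.5) and with the span alone (0.5). The same held with only the peaks nearest to Sox13 (1). It also held with lists cut to the shortest length (1), where list order decided which peaks of equal p-value stayed.

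Etv5 (NCBI gene 104156, chromosome 16, 22381313 to 22439570) was held by all lists at its upstream start and was otherwise nearly bare. The window had 1, 2, 2 and 2 peaks in DN 1, DN 2, DP 1 and DP 2, and the groups overlapped. The start region (22439351 to 22440250) had peaks of 800, 550, 850 and 900 bp in that order, with 550 bp in common. It was tied at the smallest p-value in DN 1, DP 1 and DP 2 and ranked at 24.5% in DN 2. The other 3 regions came from single lists, namely a DN 2 peak inside the gene, a DP 1 peak 22031 bp beyond the start and a DP 2 peak at an end of the neighbouring gene Dgkg, which encodes a diacylglycerol kinase. Etv5 had no DP-only region. Its difference of 0.5 peaks turned to -0.5 when only peaks nearest to Etv5, the span alone or 10 kb of flank were counted.

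Blk (NCBI gene 12143, chromosome 14, 63372837 to 63417187) had 7 regions at both ends, in the gene and in the flank, and 0 of them were in all 4 lists. Its window held 4 and 2 peaks in DN 1 and DN 2 and 4 in each DP list, 3 ± 1.41 against 4 ± 0 (SD, n = 2), and the groups overlapped. The 2 peaks of DN 2 overlapped each other and formed 1 region. Its 2 DP-only regions lay at the lower end of the gene (63372451 to 63373000, ranks 64 and 21.9%) and inside it (63381851 to 63382300, ranks 64 and 80.8%). The higher end (63416601 to 63417200) was held by DN 1 at 29.8%, by DP 1 at its largest p-value and by DP 2 at 28.7%. A region 10414 bp beyond that end (63427601 to 63428200), nearer to Fam167a, was held by both DN lists (43.3 and 32.1%) and DP 2 (28.7%) and was missing from DP 1. It was the only region in the 8 windows that both DN lists and not both DP lists held. A flank of 10 kb leaves out that region and, further out, a DN 1 peak (63435301 to 63435600) and a DP 1 peak (63436251 to 63436600). With this flank Blk had 2 more peaks in DP than in DN cells and the groups did not overlap.

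Maf (NCBI gene 17132, chromosome 8, 115703253 to 115706894) had 1 peak in each of DN 1, DN 2 and DP 1 and 2 in DP 2. All 4 lists held the same region, 657 bp beyond the higher end of the span (115707551 to 115708450). Its peaks were 550, 550, 850 and 700 bp wide in DN 1, DN 2, DP 1 and DP 2, with 550 bp in common. It ranked at 22.5, 13.7, 6.96 and 2.23% of those lists, the last a tie at the smallest p-value. DP 2 alone held a region 2607 bp from the span. No peak of any list lay inside the gene or within 1000 bp by its midpoint, and the window held no other protein-coding gene.

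Zbtb16 (NCBI gene 235320, chromosome 9, 48651797 to 48836225) had the largest difference of the 8 in peaks per window, in the longest window (284 kb), and it came mostly from 1 list. Its window held 0 peaks in both DN lists, 2 in DP 1 and 10 in DP 2, or 6 ± 5.66 in DP cells (SD, n = 2). The 10 peaks of DP 2 lay in 9 regions. Of all protein-coding genes, 15.5% had 0 peaks in both DN lists, and 8.61% had a larger DP minus DN difference than its 6 peaks. Only 1 of its 10 regions was DP-only, inside the gene 60128 bp from the nearest end (48711751 to 48712100). It was 350 bp wide, ranked at 53.1% in DP 1 and was tied at the largest p-value in DP 2. DP 2 alone held 8 further regions and DP 1 alone held 1, and no peak ranked better than 40.1% of its list. No region touched either end of the gene. The difference was 10 without DP 1, 2 without DP 2, 1 with lists cut to the shortest length and 0.5 in the top 50%, where the groups overlapped. Eomes had the larger difference with the shortest length (3), in the top 50% (2.5) and with 100 kb of flank (8.5 against 6.5). With the shortest length, list order again decided which peaks of equal p-value stayed. Per 100 kb of window Zbtb16 had 2.11 peaks in DP and 0 in DN cells, Eomes 3.71 and 0.926, and Sox4 5.73 and 3.34.

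Eomes (NCBI gene 13813, chromosome 9, 118478186 to 118486132) had more peaks in each DP list than in either DN list, by a margin that the best-ranked peaks kept. Its window held 2 peaks in DN 1, 0 in DN 2 and 4 in each DP list, which is 1 ± 1.41 against 4 ± 0 (SD, n = 2), and per 10000 peaks 0.515 and 0 against 1.01 and 0.568. The 4 peaks of DP 2 lay in 3 regions, since 2 of them overlapped. With overlapping peaks of a list counted once the difference was 2.5 instead of 3, and the groups did not overlap. It was the only 1 of the 8 genes whose groups did not overlap in the top 50% of each list, with a difference of 2.5. A DP-only region lay in the gene body, with its midpoint 1036 bp from the start (118478951 to 118479500, ranks 41 and 40.1%), and did not reach the promoter bases printed above. Another DP-only region (118505951 to 118506550, ranks 33.8 and 18.3%) covered an end of the next gene, Golga4, a Golgi protein gene. Past the end of the gene, 3269 bp away, a region over the lncRNA Gm33460 (118489401 to 118490150, 750 bp) was held by DN 1, DP 1 and DP 2 at 22.5, 33.8 and 12.5%. The 50 kb to 100 kb flank of Eomes added 3 DP-only regions on the promoter side, between 76986 and 90086 bp from the span. With 100 kb on either side the Eomes difference was 8.5 peaks.

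Tbx21 (NCBI gene 57765, chromosome 11, 97098007 to 97115331), the other T-box gene, had 1, 0, 0 and 3 peaks in DN 1, DN 2, DP 1 and DP 2, and the groups overlapped. Each of its 4 regions came from a single list. DP 2 alone held the start region (97115201 to 97115550), tied at the largest p-value of that list. The other peaks lay over or near neighbouring genes, with DP 2 peaks at Osbpl7 and in Tbkbp1 and a DN 1 peak 460 bp from an end of Kpnb1. Without DP 2 the Tbx21 difference turned from 1 to -0.5.

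**Figure D2:**
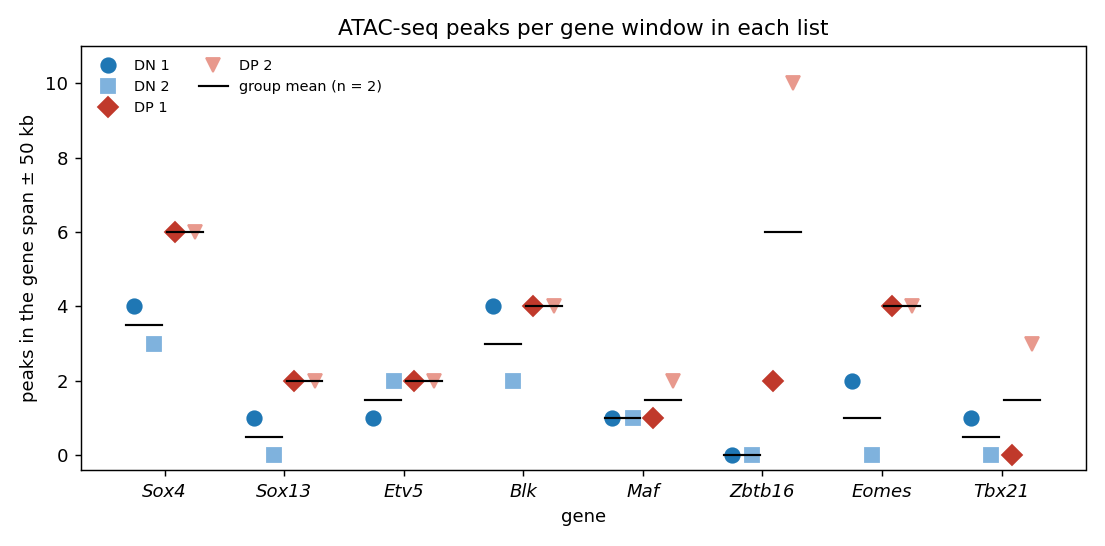
Number of peaks in the window (gene span and 50 kb on either side) of each gene in each of the 4 lists, with the mean of each group of 2 lists as a line. Sox4, Sox13, Zbtb16 and Eomes had more peaks in both DP lists than in either DN list, and Zbtb16 spread from 2 to 10 within DP.

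In all, 4 of the 8 windows (Sox4, Sox13, Zbtb16 and Eomes) held more peaks in both DP lists than in both DN lists, and 0 of 8 the opposite. Over all 21887 protein-coding genes these shares were 41.8% and 3.6%, so the 8 genes were close to the background. Per 10000 peaks of a list 3 of 8 (Sox13, Zbtb16 and Eomes) lay above, against 29.6% of all genes, and 0 of 8 below, against 16.1%. The median DP minus DN difference was 1.25 peaks for the 8 genes and 1.5 for all genes. A two-sided exact permutation test over the samples gave p = 0.333 for each of those 4 genes, which is the smallest p that 2 against 2 samples allow, and p = 1 for the other 4. In the top 50% of each list 1 of 8 (Eomes) lay above, against 37.1% of all genes. Because of ties, this top part ended near 44.5% of DP 2 and 49.1% of DP 1. With lists cut to the shortest length it was 3 of 8 (Sox4, Zbtb16 and Eomes), against 35.3%. In DN 1, DP 1 and DP 2 that cut fell among peaks tied in p-value. Their order in the deposited list decided which stayed, so the genes named for it rest partly on that order. With 100 kb of flank it was 6 of 8 (all but Blk and Maf), against 49.3%. With the spans alone 3 of 8 (Sox4, Zbtb16 and Eomes) lay above, against 16.2%, and with 10 kb of flank 4 of 8 (Sox4, Blk, Zbtb16 and Eomes), against 27%. 

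Since the windows differ in length, from 104 kb (Maf) to 284 kb (Zbtb16), the genes were ordered by peaks per 100 kb of window. In DP cells the means were 5.73 (Sox4), 3.71 (Eomes), 2.77 (Blk), 2.11 (Zbtb16), 1.45 (Maf), 1.41 (Sox13), 1.28 (Tbx21) and 1.26 (Etv5). The lists of Sox4, Eomes and Blk did not overlap in that order, and from Blk on each gene overlapped the next. In DN cells they were 3.34 (Sox4), 2.08 (Blk), 0.965 (Maf), 0.948 (Etv5), 0.926 (Eomes), 0.426 (Tbx21), 0.352 (Sox13) and 0 (Zbtb16). Here Sox4, Blk and Maf did not overlap, and from Maf on neighbours overlapped.

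**Figure D3:**
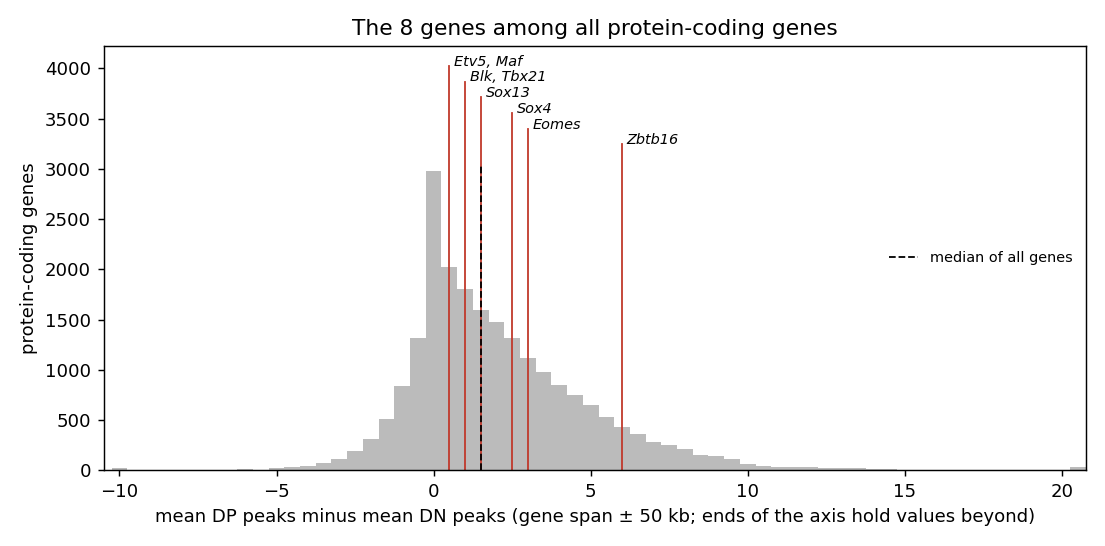
Histogram of mean DP minus mean DN peaks per window for 21887 protein-coding genes, with the 8 genes as red lines and the median of all genes, 1.5, dashed. All 8 genes lay right of 0, from 0.5 (Etv5 and Maf) to 6 (Zbtb16).

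Merged over lists when they shared at least 1 bp, the peaks of the 8 windows formed 43 regions. Of these, 8 (18.6%) were DP-only, 0 were DN-only, 5 (11.6%) were in all 4 lists, 3 were in another set of lists and 27 (62.8%) came from a single list. Over the 69527 regions in the window of any protein-coding gene the shares were 10.2, 2.71, 10.5, 14.4 and 62.2%, and over all 107621 regions 7.44, 2.51, 7.39, 10.8 and 71.8%. At least 1 DP-only region lay in 5 of the 8 windows (Sox4, Sox13, Blk, Zbtb16 and Eomes), against 44.9% of all gene windows, at least 1 DN-only region in 0 of 8, against 10.6%, and at least 1 region of all 4 lists in 3 of 8 (Sox4, Etv5 and Maf), against 49.1%. The count of DP-only regions was 3 in the top 50% of each list and 3 in the gene spans alone, 13 without DP 2 and 23 without DP 1. Without DN 2, 6 regions counted as DN-only. With 1 list left out, regions of the other list of its group alone join that group's class by definition. Shares over all regions were not computed for these settings.

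Regions that more lists held were wider and ranked better. The median width was 350 bp for single-list regions, 550 bp for 2 lists, 600 bp for 3 lists and 900 bp for all 4, and over all 107621 regions 350, 550, 700 and 850 bp. The median rank of their best peaks was 80.8, 47, 29.8 and 6.96% in the same order. A merged region can only widen with each list added, and the ranks 82.3% in DN 1, 77.9% in DN 2, 85.4% in DP 1 and 80.8% in DP 2 are those of peaks tied at the largest p-value. Of the 27 single-list regions, DP 2 held 15, DN 1 held 6, DP 1 held 5 and DN 2 held 1. By position, 10 of the 43 regions lay inside a member gene, 5 overlapped an end and 28 lay outside. The closest coding gene by its ends was a different gene for 16 regions, and 13 of these 16 came from a single list. None of the 5 regions of all 4 lists was among them: 2 overlapped the starts of Sox4 and Etv5, 1 lay just beyond Maf and 2 lay in the flank of Sox4.

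**Figure D4:**
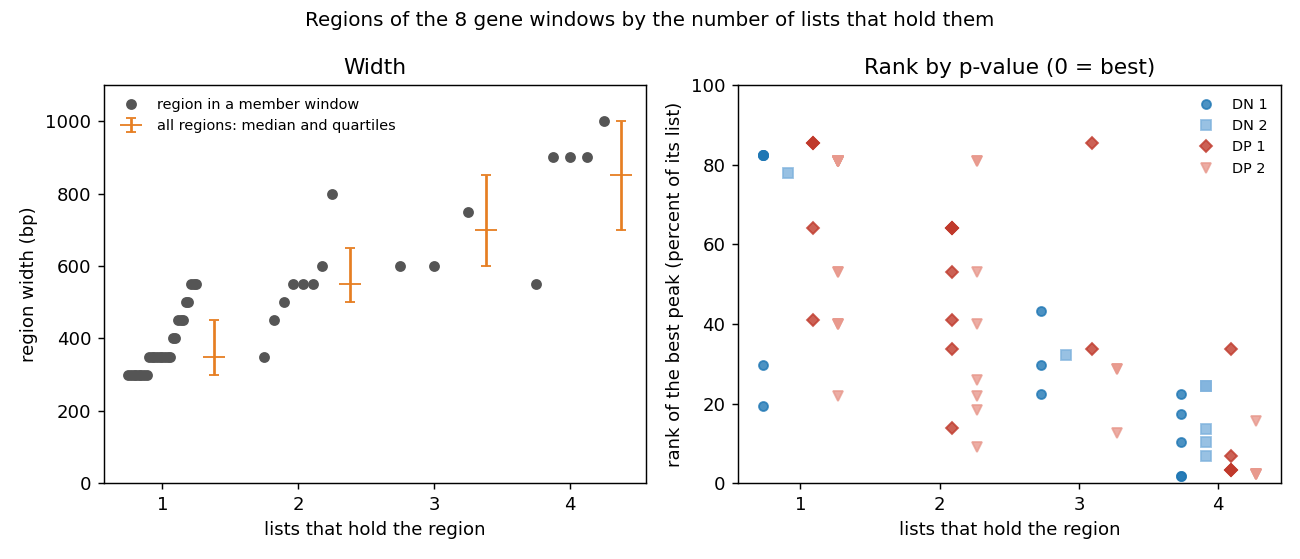
Width in bp of the 43 regions in the 8 windows (left; orange marks give median and quartiles of all regions) and p-value rank of the best peak of each list in them (right; 0 is best), by the number of lists that hold a region. Single-list regions were 300 to 550 bp wide and regions of all 4 lists 550 to 1000 bp.

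The genes most like the extremes were named by a fixed rule, the distance between the peaks per 10000 of the 4 lists, over genes on other chromosomes. For Zbtb16 these were Irx3 (0, 0, 2 and 11 peaks in DN 1, DN 2, DP 1 and DP 2), 3425401B19Rik (0, 0, 1 and 10) and Parva (1, 0, 2 and 10). For Etv5, the first of the genes with the smallest difference, 26 genes had identical counts, the first by name being 1810020O05Rik, Acad9 and Barx2. The likeness rests on 4 lists only.

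A wider list of 36 genes known from gamma-delta, natural killer T, mucosal-associated invariant T or innate lymphoid cells was read in the same windows. The list was chosen with earlier results of these data known, so its shares are a description and not a test. Of these 24 lay higher in both DP lists than in both DN lists, 1 the opposite way and 11 neither. The first is 66.7% of the list, against 41.8% of all genes, and the median difference was 3.75 peaks against 1.5. The opposite way went 1 of 36, against 3.6% of all genes. Per 10000 peaks the numbers were 20 of 36, against 29.6% of all genes, and 5 of 36, against 16.1%. The highest differences were those of Nr4a1 (4, 0, 9 and 16 peaks in DN 1, DN 2, DP 1 and DP 2), an immediate early nuclear receptor, of Fyn (10, 3, 18 and 15), a Src-family kinase, and of Hivep3 (12, 5, 17 and 20). Id3, an inhibitor of E proteins that is known to restrain innate-like fates, tied with the last 2 at 10, with 0, 0, 6 and 14 peaks and 6 DP-only regions.

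At the low end stood Il7r, the interleukin 7 receptor (9, 5, 2 and 2 peaks), the 1 gene of the list with more in both DN lists, S1pr1 (7, 4, 3 and 4) and Egr2 (10, 6, 7 and 6), which tied with Il1r1 (3, 0, 0 and 0) at -1.5. The list held 75 DP-only regions, in the windows of 25 of 36 genes, against 44.9% of all gene windows. It held 9 regions of the opposite kind (both DN lists and neither DP list, called DN-only) in 6 of 36 windows, against 10.6%, with 2 each at Il7r, S1pr1 and Etv6 (10, 5, 13 and 21 peaks) and 1 each at Fyn, Sh2d1a (3, 1, 7 and 11 peaks) and Id2 (5, 3, 7 and 5 peaks). Among the 8 regulators themselves there were 0 DN-only regions.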

How the data were processed

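Peak lists of 4 ATAC-seq samples were used, 1 list per sample. The genome build mm10 and the tools Bowtie2 and Picard, without role or version, are named per the submitters' processing notes. PeakDEck is known as the caller only through the deposited lists' names. For its settings and the read filters, the sources used here give nothing. Each deposited list gives the authors' p-value per peak, from 1e-12 to at most 0.00089, used only to rank peaks within a list. Peak starts fall every 50 bp, the narrowest peak spans 300 bp, and 9.02 to 11.3% of a list's peaks overlap an earlier peak of the same list; each was counted.

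Gene spans came from RefSeq (GRCm38.p6) and positions count from 1. Titles gave the groups and their numbering. Chromosomes 1 to 19, X and Y were used. Of the shorter list in a pair, 1.33 to 6.25% of peaks recurred with the same coordinates in the other. Members, gene lists, motifs and the rule for named genes were chosen with earlier results of these data known. The rule names the 8 members, the 3 highest and 3 lowest of the 36 related genes with ties by symbol, any related gene with a DN-only region, neighbours of member regions and the genes of nearest pattern. Id3 and Il1r1 tie with genes the rule names and were added after their values were seen. Window counts were compared as group means with two-sided exact permutation tests over samples. Alternatives were other windows, nearest peaks alone, the top 50% of each list, equal list lengths, other joining of peaks, scaling to 10000 peaks, a replicate block and leaving out each list. The top 50% ended at the p-value whose share of a list came nearest to 50%, so the share kept differed between lists. The cut to equal length took peaks by p-value and then by their order in the list. Counting overlapping peaks of a list once was added after the data were examined. The counting was tested on simulated lists. Tools were Python 3.11.15, numpy 2.4.6, pandas 2.3.3 and matplotlib 3.10.9.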

Additional observations from a re-analysis of the deposited data

How the results depend on the processing

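Eomes, Sox4, Sox13 and Zbtb16 kept a positive DP minus DN difference under all 13 settings tried for each. The replicate block is among these 13. It changes only the p-value, so its difference could not move. Over the 8 genes 87 of 104 values, those of the replicate block included, kept their sign, 10 were 0 and 7 turned. Etv5 turned to -0.5 with 10 kb of flank, with the span alone and with nearest peaks only, and per 10000 peaks Etv5 had -0.0368, Blk -0.0295 and Maf -0.0118. Leaving out 1 list in turn moved Tbx21 between -0.5 and 2.5. The count of windows higher in both DP lists was 1 of 8 in the top 50% of each list, against 37.1% of all genes. DP-only regions numbered 5 with 10 kb and 15 with 100 kb of flank, 3 in the spans alone, 3 in the top 50% and 8 to 23 with 1 list left out, where a single list then stands for its group. DN-only regions numbered 0 to 6 with 1 list left out. Regions of all 4 lists numbered 1 in the spans alone. Shares over all regions were not computed for these settings, so the region counts cannot be compared between them. Joining peaks by a 50% overlap or within 250 bp left 8 DP-only, 0 DN-only and 5 regions of all lists.

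Samples of the 2 groups share replicate numbers, but no label ties them. The replicate block leaves the Zbtb16 difference at 6 peaks by construction, and an exact test within 2 pairs cannot give a p below 0.5. Over all gene windows the deviations of same-numbered lists correlated at 0.376, which with 2 per group is a single value and its opposite. Read depth is unknown, so a missing peak limits every count.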

Other observations

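Between 50 kb and 100 kb from the 8 genes lay 29 further regions, of which 7 were in both DP lists and neither DN list, 0 in all 4 lists and 19 in a single list. Over the regions in the window of any protein-coding gene these shares were 10.2, 10.5 and 62.2%, and over all regions 7.44, 7.39 and 71.8%. Besides the 3 at Eomes, the DP-only regions lay at Sox4 (28856351 to 28856900, over 2610307P16Rik), at Etv5 (22497901 to 22498500, in Dgkg) and at Tbx21 (97021851 to 97022550 over Sp6 and 97186951 to 97187350 over Kpnb1).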
